A study of Mus musculus with 6 samples.

Results

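Very long genes are described here: the protein-coding genes whose span on the chromosome, introns included, is over 500 kb in the gene table deposited with the data. The rule was met by 183 of the 22027 protein-coding genes listed there, and 172 of these had a mean of at least 0.5 FPKM (fragments per kilobase of exon length per 1000000 fragments) and entered the test. RNA of mouse optic nerve was sequenced after depletion of ribosomal RNA, in 6 libraries. The 3 hND6 libraries carry the treatment label Mutant human ND6T14484C, an altered form of a mitochondrially encoded subunit of respiratory complex I, which the labels say was delivered to the eye with a lentivirus. The 3 mCherry libraries are labelled with the name of a red fluorescent protein, and the same lentivirus text stands beside them, so what that group received is not clear from the labels. Strain, age, promoter of the construct and time after injection are not stated in the labels, nor is it stated whether each library came from its own animal. Each p-value below is therefore set against the variation among these libraries, part of which may be technical.

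Transcription of a gene of this size is slow, because RNA polymerase II has to cross the whole span before a full transcript is released, and nearly all of that span is intron. Long genes are known as a group rich in cell adhesion molecules, synaptic receptors and ion channels, and many are used mainly by neurons. Their expression is known to depend on topoisomerases and on elongation factors that keep the polymerase moving. Total RNA libraries, unlike libraries made from polyadenylated RNA, also hold unfinished and unspliced transcripts. The optic nerve itself contains the axons of retinal ganglion cells but few neuronal cell bodies, and its cells are chiefly astrocytes and cells of the oligodendrocyte lineage.

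Promoter sequences are shown for 4 genes that stand for the patterns described below: Immp2l, with the smallest p-value of all tested very long genes, Ctnna3 from the glial list, and Nrg3 and Kcnip4 from the neuronal list, chosen after their values were seen. Each run is the 250 bases before the transcription start, 5′ to 3′ on the gene's own strand, from RefSeq on GRCm38.p6, with CG dinucleotides in capitals. The positions are chr12:41023840-41024089 on the plus strand for Immp2l, chr10:63457261-63457510 on the plus strand for Ctnna3, chr14:39473089-39473338 on the minus strand for Nrg3 and chr5:49285660-49285909 on the minus strand for Kcnip4.
Immp2l: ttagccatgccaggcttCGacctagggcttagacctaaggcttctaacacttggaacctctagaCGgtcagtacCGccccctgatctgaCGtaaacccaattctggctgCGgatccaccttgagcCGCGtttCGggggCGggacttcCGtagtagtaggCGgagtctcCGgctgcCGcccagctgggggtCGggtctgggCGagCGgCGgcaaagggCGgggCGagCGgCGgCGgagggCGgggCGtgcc
Ctnna3: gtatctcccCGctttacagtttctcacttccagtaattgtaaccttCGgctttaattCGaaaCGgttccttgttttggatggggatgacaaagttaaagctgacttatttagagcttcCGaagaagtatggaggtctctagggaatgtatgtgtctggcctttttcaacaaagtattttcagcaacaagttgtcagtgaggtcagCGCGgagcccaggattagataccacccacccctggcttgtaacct
Nrg3: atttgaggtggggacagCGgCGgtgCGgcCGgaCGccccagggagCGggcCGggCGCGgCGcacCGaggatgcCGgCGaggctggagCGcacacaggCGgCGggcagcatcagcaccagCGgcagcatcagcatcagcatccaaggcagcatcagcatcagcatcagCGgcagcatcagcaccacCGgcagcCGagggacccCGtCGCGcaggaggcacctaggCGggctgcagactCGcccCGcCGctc
Kcnip4: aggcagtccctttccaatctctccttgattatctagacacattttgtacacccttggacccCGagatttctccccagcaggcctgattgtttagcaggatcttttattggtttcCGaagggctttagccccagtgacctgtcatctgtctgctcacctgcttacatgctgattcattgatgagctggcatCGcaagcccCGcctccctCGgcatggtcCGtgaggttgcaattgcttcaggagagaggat
The window of Immp2l held 24 CG dinucleotides, that of Nrg3 27, that of Ctnna3 7 and that of Kcnip4 6. RefSeq had a promoter entry for 141 of the 183 genes, and for 127 it lay within 1000 bp of the start given in the gene table. Over these 127 the median was 14 CG dinucleotides, against 6 over all 32851 promoter windows of the same length. At least 10 were present in 84 of the 127 (66.1%), against 37.8% of all windows. The motif TATAAA, searched on both strands, was present in 6 of the 127 windows (4.72%), against 12.4% of all windows. By class it was in 4 of 12 glial, 1 of 44 neuronal and 1 of 71 other windows. The sets compared were chosen differently. The 127 are 1 window per gene, the one nearest its listed start, whereas the 32851 are all RefSeq windows without that choice.

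Reads assigned to genes, recovered from the FPKM values, ran from 20253637 in hND6 2 to 34758873 in mCherry 2. The labelled tissue was checked by summed FPKM of marker genes. Oligodendrocyte markers summed to between 4960 and 8202 FPKM and astrocyte markers to between 1478 and 2492, so glial transcripts were abundant in every library. Neuron markers set mCherry 3 and hND6 1 apart: 12 markers of neuronal cell bodies summed to 51.3, 33.6 and 696 FPKM in mCherry 1 to 3 and to 252, 37.1 and 69.9 in hND6 1 to 3. None of the 12 was at 0 in all libraries. Retinal ganglion cell markers summed to 28.0 to 36.0 FPKM in mCherry and 21.8 to 29.3 in hND6 and did not follow that pattern. Photoreceptor markers were at 196 FPKM in hND6 2 and at 1.95 to 6.20 elsewhere, and at none of the 7 markers was every library at 0. In these bulk libraries fewer cells of a type and less RNA per cell cannot be told apart.

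The very long genes took up little exon sequence and much of the chromosome. They were 0.831% of protein-coding genes and 15.6% of the summed span of those genes, but 1.81% of their exon length and 3.91% of their reads. The median span was 702 kb, 39 genes were longer than 1 Mb, 4 were longer than 2 Mb, and 11 lay on the X chromosome. Exons covered a median of 0.786% of the span, against 12.7% for tested protein-coding genes. Their median level was 18.7 FPKM, above the 9.70 FPKM of tested protein-coding genes, and 122 of the 172 had a mean of at least 10 FPKM. FPKM is per kb of exon, and gene levels were not compared with those of other genes per kb of span.

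Those levels depend on what is divided by. FPKM divides reads by exon length, and genes nested in these spans bear on how reads were assigned. Of 540 genes inside a very long gene and on its strand, 1 (0.185%) had a read. Of 480 genes inside one but on the opposite strand only, 194 (40.4%) had reads. How reads over introns or over overlapping genes were counted was not stated in the sources used, and the share of each value that came from introns was not measured. Per kilobase of span, Ptprd had the highest level of all 172, with 2.30 reads per kb of span per 1000000 reads, and Pcdh9 the next, also at 2.30. Nkain2, which had the highest FPKM, ranked number 6 on that scale with 1.36. Fhit ranked number 9 by FPKM and number 123 by span, with 0.0766 reads per kb of span per 1000000 reads, and Immp2l number 16 and number 116, with 0.0888. Across the 172 genes the Spearman correlation between both scales was 0.78, a description only. The divisor is the same in every library, but the pseudocount and the level filter behind the fold changes below were applied to FPKM, and the test was not repeated on the span scale.

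As a group, the very long genes made up 3.57%, 3.93% and 4.77% of assigned reads in mCherry 1 to 3 and 3.57%, 2.69% and 2.73% in hND6 1 to 3. The library mCherry 3 was highest and hND6 2 and hND6 3 were lowest, while hND6 1 stood level with mCherry 1. Relative to each gene's own mean over the libraries, on the log2(FPKM + 0.5) scale, the median deviation was -0.03, 0.10 and 0.67 in mCherry 1 to 3 and 0.12, -0.46 and -0.41 in hND6 1 to 3. The highest value of a gene was found in mCherry 3 for 101 of the 172 genes, in mCherry 2 for 46, in mCherry 1 for 16 and in an hND6 library for 9. In the plot of deviations by library the neuronal genes spread most, and the glial genes form a different order of libraries.

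**Figure D1:**
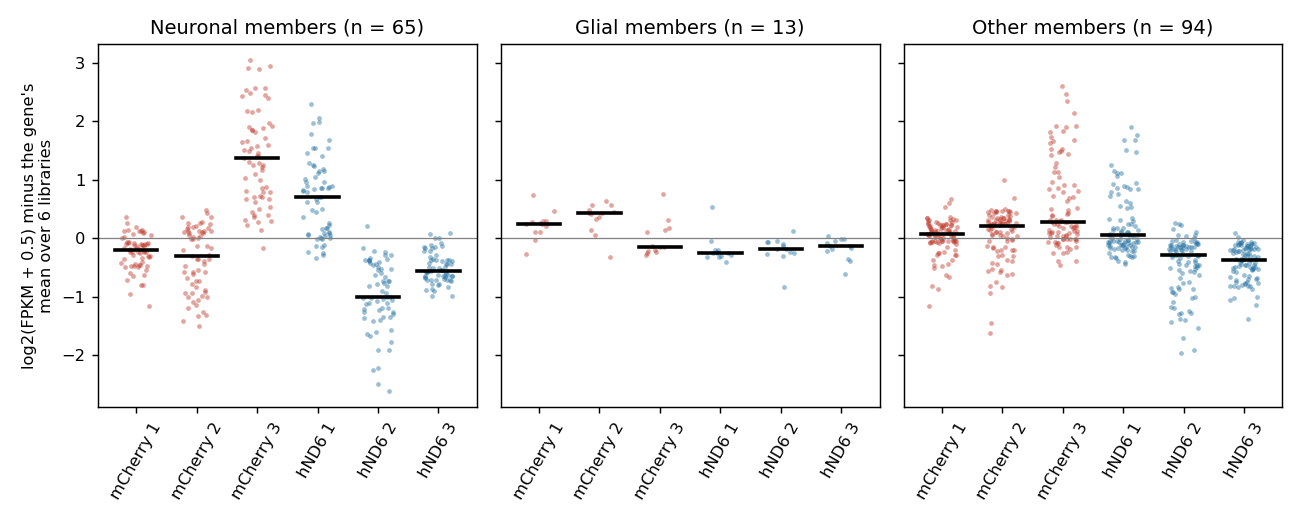
Each point is one tested very long gene in one library, and the vertical axis gives log2(FPKM + 0.5) minus that gene's mean over the 6 libraries; black bars are medians, red is mCherry and blue is hND6. Neuronal genes (n = 65) are high in mCherry 3 and hND6 1, with medians of 1.37 and 0.71, whereas glial genes (n = 13) are highest in mCherry 1 and mCherry 2, with medians of 0.25 and 0.42.

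Between groups, 168 of the 172 tested genes had a lower estimate in hND6 and 4 a higher one. The median log2 fold change was -0.45, with quartiles of -0.60 and -0.32, against -0.01 over all 16157 tested genes, of which 51.4% had an estimate below 0. None of the 172 passed an adjusted p of 0.05 in limma with Benjamini-Hochberg adjustment over all tested genes, a threshold that 0.0433% of all tested genes passed. The smallest adjusted p was 0.143, and voom on the recovered reads likewise called 0 of the 172. At an unadjusted limma p under 0.05, 51 genes were lower and 0 higher, against 6.05% and 9.11% of all tested genes in each direction. In 46 of the 172 (26.7%) all 3 hND6 values lay below all 3 mCherry values, against 10.2% of all tested genes. The opposite order was found in 0 of the 172, against 12.6% of all tested genes, and either order in 22.8% of all tested genes. Summed red blood cell markers stood higher in every hND6 library (1363 to 2602 FPKM) than in any mCherry library (179 to 467), and their part in the result was not tested.

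The size of that group difference rested in part on single libraries. Without mCherry 3 the median was -0.26 and 127 of 171 tested genes had a lower estimate, and without mCherry 3 and hND6 2 it was -0.15 with 105 of 171 lower. Without mCherry 3 and hND6 1, the libraries rich in neuron markers, it was -0.46 with 164 of 169 lower. Groups of 2 libraries each then did not overlap in the lower direction for 126 of those 169, against 27.5% of the 15950 genes tested in that setting. Shorter long genes were similar, with 184 of 269 protein-coding genes from 300 to 500 kb and 912 of 1504 from 100 to 300 kb. These last counts are of genes that also passed the level filter with all 6 libraries. With fewer libraries, groups overlap less often in all genes. In either direction they did not overlap for 67 of 171 very long genes without mCherry 3, against 41.2% of all genes tested there, and for 109 of 171 without hND6 1, against 35%. Without mCherry 3 and hND6 1 the count was 127 of 169, against 53.7%, and without mCherry 3 and hND6 2 it was 77 of 171, against 49.7%. The 4 genes with a higher estimate were Grm8 (0.36), Sgcd (0.10), Thsd4 (0.06) and Thsd7b (0.02), log2 fold changes that lay within their standard errors. That of Thsd4 was -0.04 without mCherry 3. They were named after their values were seen.

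A list of broadly expressed enzymes and trafficking proteins, which also took in Foxp1, Lpp and Pard3, gave close replicates. Its median standard error was 0.12 on the log2 scale, against 0.19 for glial and 0.60 for neuronal genes. All 10 tested genes of that list had a lower estimate in hND6, with a median log2 fold change of -0.31. All hND6 values lay below all mCherry values in 7 of the 10, against 10.2% of all tested genes, and 0 passed the adjusted threshold, against 0.0433%. Immp2l, which encodes a subunit of the inner membrane peptidase of mitochondria, was at 82.6, 86.7 and 85.8 FPKM in mCherry 1 to 3 and at 61.9, 63.3 and 59.9 FPKM in hND6 1 to 3. The groups were apart and each was tight, and the log2 fold change was -0.46 ± 0.07 (standard error; adjusted p = 0.143 in limma). It lay between -0.48 and -0.44 whichever single library was left out.

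Fhit, a dinucleotide hydrolase gene that lies over a common fragile site, spans 1611936 bp with 1094 bp of exon on chromosome 14. It was at 141, 152 and 120 FPKM in mCherry 1 to 3 and at 109, 95.8 and 71.2 in hND6 1 to 3. All hND6 values were below all mCherry values, with more spread than for Immp2l, and the log2 fold change was -0.60 ± 0.18 (adjusted p = 0.236 in limma). Gmds, an enzyme of the pathway to the sugar donor for fucose, was at 80.6, 86.8 and 77.1 FPKM in mCherry and at 73.7, 65.7 and 55.7 in hND6. Here too the groups did not overlap, at a log2 fold change of -0.33 ± 0.12 (adjusted p = 0.280 in limma).

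Exoc4, a subunit of the exocyst that tethers secretory vesicles, and Vps13b, a lipid transfer protein of the Golgi, are shown beside them and were picked after their values were seen. Exoc4 was at 66.3, 71.3 and 63.2 FPKM in mCherry 1 to 3 and at 58.1, 52.2 and 53.4 in hND6 1 to 3. Vps13b was at 17.5, 17.5 and 17.0 FPKM in mCherry and at 15.03, 14.1 and 13.5 in hND6. Neither overlapped between groups, and the log2 fold changes were -0.29 ± 0.08 and -0.28 ± 0.08. Macrod2, an enzyme that removes ADP-ribose from proteins, differed from these. It was at 33.7, 36.6 and 62.4 FPKM in mCherry and at 41.7, 24.2 and 24.5 in hND6, so that hND6 1 lay above mCherry 1 and mCherry 2, and its log2 fold change was -0.54 ± 0.30 (adjusted p = 0.449 in limma), or -0.27 without mCherry 3.

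**Figure D2:**
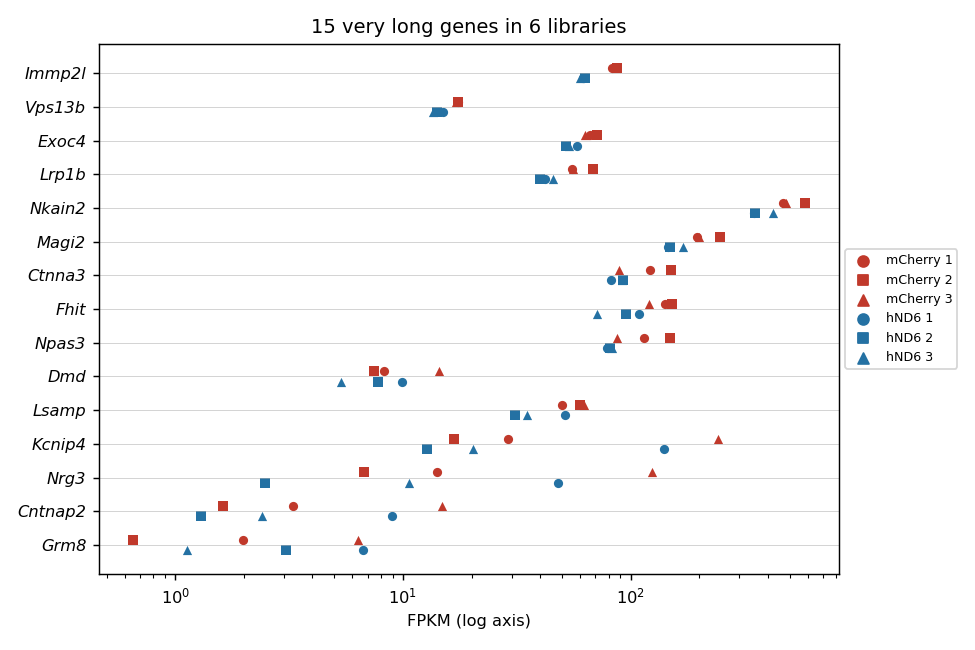
FPKM on a log axis of 15 very long genes in each of the 6 libraries, red for mCherry and blue for hND6, with one marker shape per replicate number. From Immp2l to Magi2 all hND6 points lie left of all mCherry points, whereas Kcnip4 ranges from 12.8 to 242 FPKM with mCherry 3 and hND6 1 highest.

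Glial genes had estimates of one sign. All 13 tested genes of that list had a negative estimate, from -0.60 to -0.22 with a median of -0.39, and groups did not overlap in 4, against 10.2% of all tested genes in that direction. None passed the adjusted threshold. Nkain2, a membrane protein gene that interacts with the sodium pump, had the highest FPKM of all very long genes and spans 1201152 bp on chromosome 10. It was at 467, 584 and 482 FPKM in mCherry 1 to 3 and at 349, 352 and 420 in hND6 1 to 3. The lowest mCherry library was above the highest hND6 library, with group means of 511 ± 63.7 and 374 ± 40.1 (SD, n = 3) and a log2 fold change of -0.45 ± 0.15 (adjusted p = 0.256 in limma). With quantile normalisation that log2 fold change was -0.82.

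Lhfpl3, a tetraspan membrane protein gene used by oligodendrocyte precursors, was at 42.5, 60.7 and 54.2 FPKM in mCherry 1 to 3 and at 37.0, 38.4 and 33.9 in hND6 1 to 3. Its groups did not overlap, at a log2 fold change of -0.51 ± 0.14 (adjusted p = 0.212 in limma). Npas3, a bHLH-PAS transcription factor of astrocytes and progenitors, was at 114, 149 and 87.3 FPKM in mCherry and at 78.4, 80.8 and 82.8 in hND6. The hND6 values lay close together below all mCherry values, and the log2 fold change was -0.50 ± 0.19 (adjusted p = 0.297 in limma).

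Ctnna3, an alpha-catenin that links cadherins to actin, was at 122, 151 and 88.6 FPKM in mCherry 1 to 3 and at 82.2, 92.8 and 91.2 in hND6 1 to 3. Here mCherry 3 lay among the hND6 values, and the log2 fold change was -0.41 ± 0.19, or -0.61 without mCherry 3. Arhgap15, a regulator of the GTPase Rac, was at 23.3, 20.9 and 21.8 FPKM in mCherry and at 17.4, 19.4 and 18.4 in hND6, with no overlap and a log2 fold change of -0.25 ± 0.08 (adjusted p = 0.257 in limma). Elmo1 (-0.28 ± 0.18) and Dock1 (-0.27 ± 0.15), partners in the activation of Rac, and Mast4 (-0.33 ± 0.19), a kinase gene, had values in mCherry 3 that lay below at least one hND6 value, and without that library the 3 estimates were -0.46, -0.41 and -0.54. The highest library of a glial gene was mCherry 2 in 10 of 13, and mCherry 3 in 1.

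Summed markers of glial cell types, in contrast, were highest in an hND6 library and lowest in an mCherry library, but a few genes made up much of these sums. Astrocyte markers summed to 1478 to 2011 FPKM in mCherry and 2058 to 2492 in hND6. Of the 7, Gfap (log2 fold change 0.39), S100b (0.65), Sox9 (0.41) and Gja1 (0.20) were higher without overlap, whereas Aqp4 (0.16), Aldh1l1 (0.00) and Slc1a3 (-0.03) had estimates within their standard errors. Oligodendrocyte precursor markers summed to 99.7 to 142 and 142 to 185 FPKM, with only Olig1 (0.66) not overlapping among 5 and Pdgfra, a receptor that defines these cells, at 0.17. Oligodendrocyte markers (4960 to 7439 and 7051 to 8202) and microglial markers (274 to 480 and 405 to 513) overlapped between groups. The part of these cell types in the result was not tested.

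Neuronal genes had the widest spread over libraries and, with all 6 libraries, a lower median estimate than glial or other very long genes. Of 65 tested genes 63 had a lower estimate in hND6, with a median log2 fold change of -0.56, a median standard error of 0.60 and non-overlapping groups in 9 (13.8%), near the 10.2% of all tested genes. Without mCherry 3 the neuronal median was 0.00, and without mCherry 3 and hND6 1 it was -0.50. Their median deviation was -0.20, -0.31 and 1.37 in mCherry 1 to 3 and 0.71, -1.0 and -0.56 in hND6 1 to 3, the same order as the neuron markers at its upper end. In 58 of the 65 the highest library was mCherry 3, and in 48 the highest pair was mCherry 3 and hND6 1. The ratio of the highest to the lowest library had a median of 6.93 and reached 73.2, against a median of 1.79 for glial genes and 1.45 for the broadly expressed list. Syt1, the calcium sensor of synaptic vesicles (513326 bp), is both a very long gene and a neuron marker. The sums of the other 11 markers ran the same way, from 28.7 to 583 FPKM in mCherry and from 30.03 to 208 in hND6, again highest in mCherry 3 and hND6 1. The part of neuronal RNA in these results was not tested, but its markers and these genes were high in the same libraries.

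Kcnip4, a calcium-binding partner of A-type potassium channels, was at 29.0, 16.7 and 242 FPKM in mCherry 1 to 3 and at 140, 12.8 and 20.3 in hND6 1 to 3. Each group held 1 high library and 2 low ones, and the log2 fold change of -0.56 ± 1.24 (adjusted p = 0.861 in limma) turned to 0.59 without mCherry 3. It was -0.44 without mCherry 3 and hND6 1. Nrg3, a neuregulin that binds ErbB4 and is chosen here after its values were seen, was at 14.1, 6.76 and 124 FPKM in mCherry and at 47.9, 2.47 and 10.6 in hND6. Its log2 fold change was -1.01 ± 1.34, so its size lay within its standard error, and it was 0.19 without mCherry 3. Cntnap2, a neurexin-like protein of the axon beside the node of Ranvier, is one of the longest genes of the mouse. It was at 3.30, 1.63 and 14.9 FPKM in mCherry and at 8.99, 1.29 and 2.41 in hND6. Its log2 fold change was -0.44 ± 0.88, or 0.37 without mCherry 3 and -0.32 without mCherry 3 and hND6 1.

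Some genes of the neuronal list were more even over libraries and did not follow the neuron markers. In 10 of the 65 the highest library was under 2 times the lowest. Which cells these transcripts came from was not tested. Lrp1b, a giant receptor of the LDL receptor family, was at 55.5, 68.3 and 55.8 FPKM in mCherry 1 to 3 and at 42.2, 39.9 and 45.5 in hND6 1 to 3. In mCherry 1 and mCherry 2 it stood above the sum of all 12 neuron markers, 51.3 and 33.6 FPKM. The groups of Lrp1b did not overlap, mCherry 3 was not its highest library, and the log2 fold change was -0.48 ± 0.11 (adjusted p = 0.178 in limma). Mdga2, an anchored protein that blocks neuroligin, was at 34.4, 38.0 and 37.1 FPKM in mCherry and at 28.8, 24.4 and 28.9 in hND6, again without overlap and at a log2 fold change of -0.41 ± 0.09 (adjusted p = 0.178 in limma). Dlg2, a scaffold of the postsynaptic density, and Fam155a, a partner of the NALCN sodium leak channel, were uneven and had their highest values in mCherry 3, at 95.9 and 104 FPKM. Their log2 fold changes of -0.44 ± 0.26 and -0.76 ± 0.87 were -0.19 and -0.03 without mCherry 3. They were -0.39 and -0.81 without mCherry 3 and hND6 1.

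Receptors for glutamate and GABA showed both kinds of pattern. Of 7 tested genes 6 had a lower estimate in hND6, with a median of -0.54, and groups did not overlap in 2, against 10.2% of all tested genes. Without mCherry 3 the median was -0.20 with 5 lower, and without mCherry 3 and hND6 1 it was -0.51 with 6 lower. Grik2, a kainate receptor subunit, was at 20.2, 27.5 and 28.5 FPKM in mCherry 1 to 3 and at 18.2, 17.4 and 19.1 in hND6 1 to 3, without overlap (log2 fold change -0.45 ± 0.14). Grm7, a presynaptic metabotropic receptor, ranged from 5.66 to 42.8 FPKM, with mCherry 3 and hND6 1 highest, and its estimate of -0.74 ± 0.71 was -0.20 without mCherry 3. Grm8, of the same receptor group, was at 1.99, 0.649 and 6.36 FPKM in mCherry and at 6.67, 3.06 and 1.13 in hND6, which gave the highest estimate of all very long genes, 0.36 ± 0.78, and 1.03 without mCherry 3.

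Ion channel genes, 11 tested, all had a lower estimate in hND6 (median -0.57), and 0 had non-overlapping groups, a count too small to set against the 10.2% of all tested genes. Without mCherry 3 the median was 0.11 and 5 had a lower estimate. Without mCherry 3 and hND6 1 it was -0.49 and all 11 had a lower estimate. Trpm3, a heat-activated cation channel, had the highest level of the list. It was at 240, 350 and 381 FPKM in mCherry 1 to 3 and at 261, 320 and 132 in hND6 1 to 3, so the low value of hND6 3 stood apart from the other libraries, which overlapped. Its log2 fold change of -0.51 ± 0.35 (adjusted p = 0.537 in limma) was -0.14 without hND6 3. Cacna2d3, an accessory subunit of calcium channels, was at 24.4, 29.1 and 42.8 FPKM in mCherry and at 41.4, 19.99 and 14.1 in hND6, with hND6 1 close to mCherry 3 (log2 fold change -0.45 ± 0.41, or -0.22 without mCherry 3).

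Adhesion and guidance genes were a large list. With all 6 libraries the 34 tested genes all had a lower estimate in hND6, with a median of -0.44, and groups did not overlap in 11, against 10.2% of all tested genes. Without mCherry 3 the median was -0.28 and 22 had a lower estimate. Without mCherry 3 and hND6 1 it was -0.46 and 30 of 31 had a lower estimate. Pcdh9, a protocadherin, was at 328, 427 and 348 FPKM in mCherry 1 to 3 and at 247, 255 and 285 in hND6 1 to 3, and every hND6 value was below every mCherry value. Its log2 fold change was -0.48 ± 0.14 (adjusted p = 0.223 in limma), or -0.79 with quantile normalisation. Magi2, a scaffold of cell junctions, was at 195, 246 and 200 FPKM in mCherry and at 145, 149 and 169 in hND6, without overlap (log2 fold change -0.46 ± 0.12, adjusted p = 0.207 in limma).

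Ctnna2, the alpha-catenin of neurons, was at 168, 168 and 152 FPKM in mCherry 1 to 3 and at 124, 116 and 136 in hND6 1 to 3. Its groups did not overlap, at a log2 fold change of -0.38 ± 0.10 (adjusted p = 0.199 in limma). Ptprd, a receptor phosphatase of synapses, was at 119, 145 and 138 FPKM in mCherry and at 114, 95.0 and 112 in hND6. The gap between the groups was narrow, and the log2 fold change was -0.32 ± 0.12 (adjusted p = 0.292 in limma). Dcc, the netrin receptor, was at 26.7, 28.4 and 36.5 FPKM in mCherry and at 23.2, 16.5 and 23.6 in hND6, at a log2 fold change of -0.53 ± 0.18. Lrrc4c, the ligand of netrin-G1, showed a log2 fold change of -0.74 ± 0.24 and Cdh13, an anchored cadherin, one of -0.72 ± 0.20, the lowest estimates among genes whose groups did not overlap. Both had their highest value in mCherry 3, at 90.6 and 36.0 FPKM.

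The IgLON genes Lsamp, Ntm, Opcml and Negr1 encode small anchored immunoglobulin-domain proteins, and all 4 had a lower estimate in hND6 (median -0.56) with overlapping groups. Without mCherry 3 all 4 estimates were still negative, but the median was -0.22. Without mCherry 3 and hND6 1 the median was -0.58. Lsamp was at 50.2, 60.2 and 62.3 FPKM in mCherry 1 to 3 and at 51.6, 31.1 and 35 in hND6 1 to 3, where only hND6 1 reached into the mCherry range. Its log2 fold change was -0.57 ± 0.20 (adjusted p = 0.274 in limma). Ntm, with 155 FPKM in mCherry 3 and 108 in hND6 1 against 41.3 to 68.1 elsewhere, and Negr1, with 72.7 and 64.5 against 29.9 to 45.3, followed the neuron markers. Opcml was at 109 FPKM in mCherry 3 and 24.5 to 54.6 elsewhere. The log2 fold changes of Ntm, Opcml and Negr1 were -0.55 ± 0.49, -0.76 ± 0.47 and -0.34 ± 0.37, and -0.13, -0.31 and -0.06 without mCherry 3.

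Of 7 tested genes of muscle, vessel and connective tissue, 6 had a lower estimate in hND6. The median was -0.34, or -0.17 without mCherry 3 and -0.36 without mCherry 3 and hND6 1. Groups did not overlap in 0 of the 7, a count too small to set against the 10.2% of all tested genes. Dmd, which encodes dystrophin and spans over 2 Mb, was at 8.22, 7.5 and 14.4 FPKM in mCherry 1 to 3 and at 9.86, 7.80 and 5.33 in hND6 1 to 3. The groups overlapped, and the log2 fold change was -0.35 ± 0.30 (adjusted p = 0.624 in limma), or -0.07 without mCherry 3. Prkg1, a cGMP-dependent kinase of smooth muscle, was at 22.9, 24.8 and 48.1 FPKM in mCherry and at 24.6, 12.5 and 12.1 in hND6 (log2 fold change -0.94 ± 0.37, adjusted p = 0.317 in limma, or -0.61 without mCherry 3). Sgcd, a sarcoglycan of the dystrophin complex, was at 69.6 FPKM in hND6 1 and at 24.0 to 34.4 in the other libraries. Summed skeletal muscle markers were low in every library, at 3.22 to 5.85 FPKM in mCherry and 2.97 to 3.83 in hND6.

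Of the remaining genes with non-overlapping groups, Erbb4, a receptor for neuregulins, was at 26.9, 45.5 and 33.0 FPKM in mCherry 1 to 3 and at 22.7, 24.8 and 21.9 in hND6 1 to 3, at a log2 fold change of -0.56 ± 0.19. Ctnnd2, a neuronal delta-catenin, was at 88.7, 63.7 and 75 FPKM in mCherry and at 56.7, 41.0 and 54.1 in hND6 (log2 fold change -0.58 ± 0.17). Il1rapl1, a synaptic receptor of the interleukin-1 receptor family, showed a log2 fold change of -0.60 ± 0.20. Dach2, a transcription cofactor gene, was near the lower end of the tested levels, at 1.89, 2.26 and 1.92 FPKM in mCherry and at 0.98, 1.0 and 1.3 in hND6. Its groups did not overlap either, at a log2 fold change of -0.67 ± 0.17 (adjusted p = 0.199 in limma). St6galnac3, a sialyltransferase gene, and Edil3, an integrin ligand, were among the 10 genes of highest FPKM, but in both the mCherry 3 value lay among or below the hND6 values, and their log2 fold changes were -0.43 ± 0.20 and -0.14 ± 0.21.

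How evenly a gene was measured went with how often its groups separated. Of 70 genes whose highest library was under 2 times the lowest, 38 (54.3%) had non-overlapping groups, with a median log2 fold change of -0.34. Of 102 genes with a wider range 8 (7.84%) did, with a median of -0.57. The uneven genes thus had lower estimates and less separation between groups. Both counts are descriptions, since range and overlap come from the same 6 values of a gene. All hND6 values lay below all mCherry values in 10.2% of all tested genes, which were not split by range.

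With all 6 libraries, and up to 500 kb, median estimates were lower in each longer class of genes. In protein-coding genes of up to 10 kb the median log2 fold change was 0.20, and 762 of 3403 had a lower estimate in hND6. It was 0.03 from 10 to 30 kb, -0.08 from 30 to 100 kb, -0.20 from 100 to 300 kb and -0.33 from 300 to 500 kb, where 261 of 277 had a lower estimate. Among the very long genes it was -0.39 from 500 to 600 kb (60 of 61 lower), -0.54 from 600 to 800 kb (44 of 45), -0.48 from 800 to 1000 kb (25 of 27) and -0.53 above 1 Mb (39 of 39). Beyond 500 kb the order of classes was not strict. Without mCherry 3 the median was 0.25 up to 10 kb, 0.03 from 10 to 30 kb, -0.10 from 30 to 100 kb, -0.21 from 100 to 300 kb and -0.22 from 300 to 500 kb. The very long classes were then at -0.26, -0.21, -0.20 and -0.33 in the same order. From 100 to 1000 kb these medians thus changed little with length, and the class above 1 Mb was lowest. Without both mCherry 3 and hND6 1 the medians again fell with length. They were -0.25 from 100 to 300 kb and -0.37 from 300 to 500 kb, and -0.43, -0.46, -0.46 and -0.52 in the very long classes. Scaling every library to the same summed FPKM (the TPM scale) moved the median of all genes to -0.14 and that of the very long genes to -0.59, with 171 of 172 lower, a shift that all genes of a library share.

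**Figure D3:**
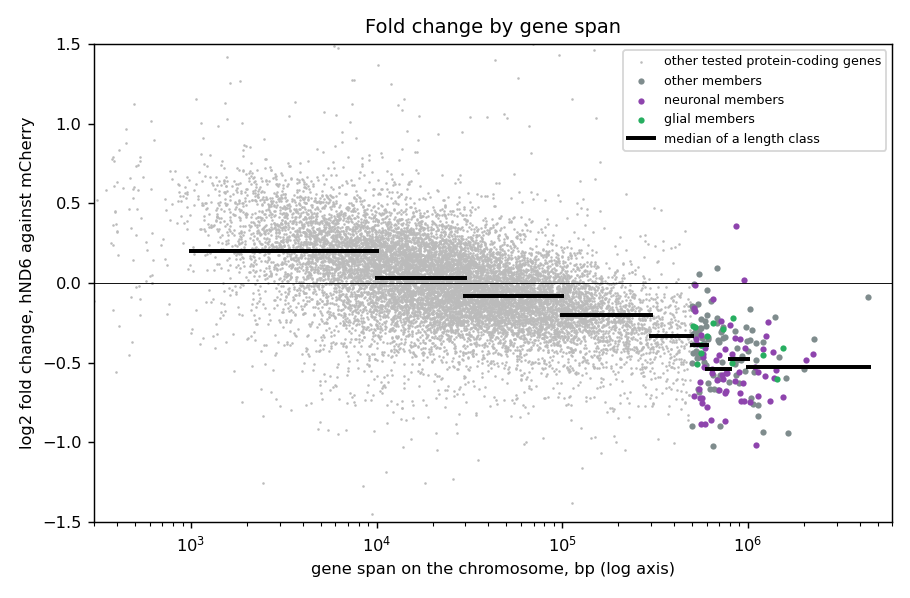
Log2 fold change of hND6 against mCherry for each tested protein-coding gene by its span on a log axis, with very long genes in colour and black bars for the median of each length class. With all 6 libraries, as drawn, the medians go from 0.20 in genes of up to 10 kb to -0.53 above 1 Mb. Without mCherry 3 they go to -0.33, with -0.26 to -0.20 in the classes from 100 to 1000 kb. Without mCherry 3 and hND6 1 they go to -0.52. Not drawn are 19 genes beyond ±1.5, none of them very long, and 5 genes shorter than the start of the axis.

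Within the very long genes the relation with length was weak. The Spearman correlation between span and log2 fold change was -0.23 across 172 genes, against -0.54 across 13676 tested protein-coding genes, and genes are not independent replicates. It was -0.02 across the 65 neuronal genes, -0.27 across the 13 glial genes and -0.27 across the 94 others. Without mCherry 3 it was -0.04 across 171 very long genes and -0.52 across 13589 protein-coding genes. Without mCherry 3 and hND6 1 it was -0.19 across 169 very long genes. Correlations of log2 fold change with exon length and with mean expression were 0.14 and 0.13.

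Single libraries differed in how their levels followed length. In the class above 1 Mb the median deviation was -0.02, 0.14 and 0.73 in mCherry 1 to 3 and 0.08, -0.53 and -0.42 in hND6 1 to 3. In genes of up to 10 kb it was -0.14, -0.16 and -0.03 in mCherry and 0.06, 0.10 and 0.15 in hND6. In these short genes all 3 mCherry medians lay below all 3 hND6 medians, whereas in the longest class hND6 1 lay between mCherry 1 and mCherry 2. From 100 to 300 kb, where 1534 genes were tested, the medians of 0.07, 0.15 and 0.02 in mCherry were all above the -0.05, -0.10 and -0.14 of hND6.

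**Figure D4:**
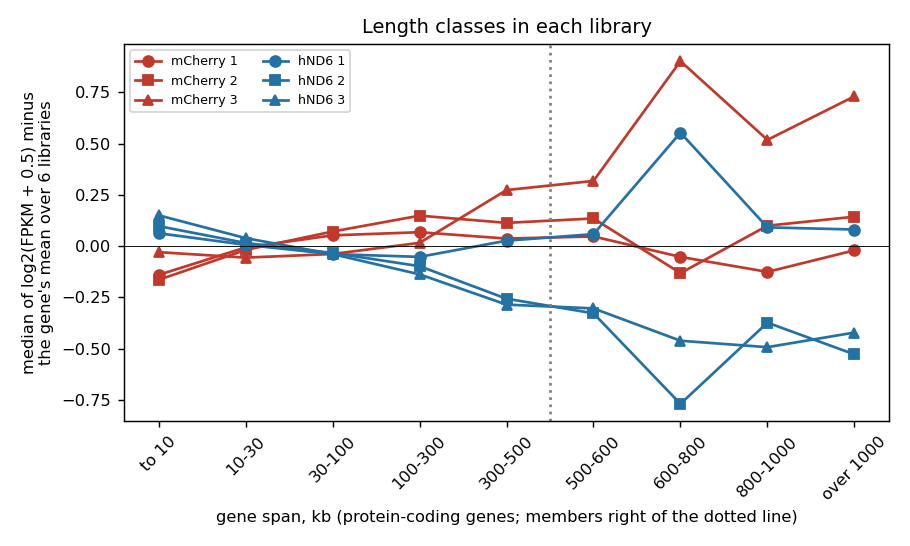
Median deviation of log2(FPKM + 0.5) from each gene's mean over 6 libraries, by length class of protein-coding genes in kb, with one line per library and the very long genes right of the dotted line. Lines of hND6 2 and hND6 3 descend to -0.53 and -0.42 above 1 Mb, mCherry 3 climbs to 0.73, and hND6 1 ends at 0.08 between mCherry 1 and mCherry 2.

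The longest gene of the set was Gm20388, a predicted gene on chromosome 8 listed at 4434882 bp, which shares 26.9% of its span with 90 other genes on its strand. It was at 47.5, 43.1 and 42.8 FPKM in mCherry 1 to 3 and at 38.4, 48.3 and 39.2 in hND6 1 to 3, with overlapping groups and a log2 fold change of -0.09 ± 0.11. Csmd1, a large complement regulator of neurons, was at 8.0, 7.99 and 47.9 FPKM in mCherry and at 23.1, 2.87 and 5.70 in hND6, and Nrxn3, a presynaptic neurexin, at 36.8, 44.0 and 78.6 and at 55.1, 19.1 and 26.8. Both were highest in mCherry 3 and next in hND6 1, and their log2 fold changes were -0.94 ± 0.94 and -0.71 ± 0.44, and -0.10 and -0.39 without mCherry 3. Without mCherry 3 and hND6 1 they were -0.89 and -0.82.

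The genes next to the 500 kb limit are given as a description. Just inside it, Agbl4 (501580 bp), a tubulin-trimming enzyme, showed a log2 fold change of -0.90 ± 0.77, Edil3 (501713 bp) one of -0.14 ± 0.21 and Car10 (502460 bp), a carbonic anhydrase-like protein, one of -0.50 ± 1.17. Without mCherry 3 these were -0.26, -0.37 and 0.68, so the sign for Car10 changed when that library alone was left out. Without mCherry 3 and hND6 1 they were -0.90, -0.28 and -0.02. Just outside it, Ank3 (493667 bp), the ankyrin of the axon initial segment and nodes, was at 51.4, 61.3 and 69.6 FPKM in mCherry 1 to 3 and at 49.6, 44.7 and 50.1 in hND6 1 to 3, at a log2 fold change of -0.32 ± 0.12. Kcnh7 (490865 bp), a potassium channel, had one of -0.25 ± 1.15 that turned to 0.85 without mCherry 3. It was -0.05 without mCherry 3 and hND6 1. Abca13 (492318 bp) was at most at 0.142 FPKM and was not tested.

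Neuronal and glial genes did not differ by more than the libraries differed among themselves. The median log2 fold change of the 65 neuronal genes was 0.17 below that of the 13 glial genes. Both classes are by list, and the neuronal list held genes, such as Lrp1b, that did not follow the neuron markers. In single libraries the median deviation of neuronal genes minus that of glial genes was -0.46, -0.73 and 1.51 in mCherry 1 to 3 and 0.97, -0.82 and -0.42 in hND6 1 to 3, a pooled SD of 1.09, so both groups held both signs. The difference of medians was 0.47 without mCherry 3 and -0.69 without hND6 1. Without both it was -0.01, with medians of -0.50 for 62 neuronal genes (58 with a lower estimate) and -0.49 for 13 glial genes, in 12 of which groups did not overlap in the lower direction, against 27.5% of all genes tested in that setting.

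Leaving out mCherry 3 alone gave a neuronal median of 0.00, with 33 of 65 lower, and a glial median of -0.48, with 13 of 13 lower. The 94 very long genes on neither list include some described above as neuronal, such as Csmd1, Ctnna2 and Ctnnd2. In 42 of the 94 the highest library was mCherry 3. The median of the 94 was -0.40 with all libraries, with 92 lower and 33 not overlapping, against 10.2% of all tested genes. It was -0.30 without mCherry 3. Glial medians ranged from -0.48 to -0.23 over all single omissions, and neuronal medians from -1.03 to 0.00. In the plot with libraries left out, the neuronal points therefore move across the axis while the glial points stay below 0.

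**Figure D5:**
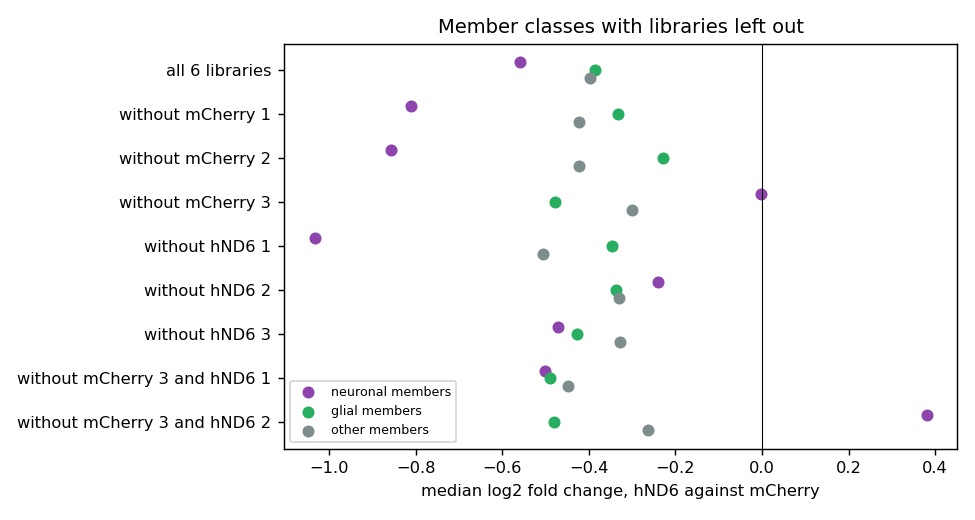
Median log2 fold change of hND6 against mCherry for neuronal, glial and other very long genes, with all 6 libraries and with 1 or 2 libraries left out. Glial medians lie from -0.49 to -0.23 in every row, whereas neuronal medians run from -1.03 without hND6 1 to 0.38 without mCherry 3 and hND6 2.

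Genes known to act in the transcription of long genes, none of them very long themselves, were read from a list of 44 topoisomerases, elongation factors, kinases of the polymerase and RNA-binding proteins. None passed the adjusted threshold in limma, 17 had a higher and 27 a lower estimate, and the median log2 fold change was -0.04. At an unadjusted p under 0.05, 6 were lower and 1 was higher, against the 6.05% and 9.11% of all tested genes given above. Ssrp1, a subunit of the histone chaperone FACT, was at 22.9, 20.6 and 20.03 FPKM in mCherry 1 to 3 and at 25.3, 25.6 and 26.9 in hND6 1 to 3 (log2 fold change 0.29, adjusted p = 0.215 in limma). Cdk12, an elongation kinase, was at 18.8, 18.9 and 17.1 FPKM in mCherry and at 14.99, 15.1 and 15.3 in hND6 (log2 fold change -0.26, adjusted p = 0.225 in limma). Xrn2, the exonuclease of termination, showed a log2 fold change of -0.25 (adjusted p = 0.255 in limma). Top1, which relaxes supercoils ahead of the polymerase, and Top2b were at -0.25 and -0.03.

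The 11 very long genes below the level filter included Gm42416, Gm37013, Gm37388, Gm21949, Malrd1, Schip1, Pkhd1, Iqcm, Skint5 and Stpg2. The first 3 are predicted genes listed at 0 in all libraries, whose spans are shared in full with 69 other genes on their strand.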

How the data were processed

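FPKM values of 6 optic nerve libraries (3 mCherry, 3 hND6) and gene spans and exon lengths were taken as the authors deposited them, and the unit FPKM is given per the labels. Per the labels' protocols, stranded libraries were made from ribosomal-RNA-depleted total RNA (Qiagen RNeasy, TruSeq). Tools listed in the submitters' processing notes are STAR, HTSeq, Trim Galore and CASAVA 1.4, with the builds mm10 and GRCm38 and no roles. Positions are as in the deposited gene table.

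Genes that averaged 0.5 FPKM or more were tested on log2(FPKM + 0.5) in R 4.3.3 with limma 3.58.1 (moderated test with an intensity trend, two-sided, all 6 libraries, no block), with Benjamini-Hochberg adjustment over all 16157 genes. That scale understates changes of low genes. Whole reads, recovered from the FPKM steps for at least 99.99% of values (within 0.1 read), gave the depth and an alternative test (voom). The test was checked on simulated data. The genes described and all gene lists were chosen with earlier results of these data known. Named genes are those of highest FPKM, greatest span, smallest p or most extreme estimate with non-overlapping groups, overall or per list, and those beside the length limit. A gene whose symbol had become a date was named from its Ensembl identifier. Some genes are not reported here. Alternatives were other pseudocounts, filters, scalings, limma settings, length limits, a replicate block and left-out libraries.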

Additional observations from a re-analysis of the deposited data

How the results depend on the processing

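None of the very long genes passed the adjusted threshold in limma under any setting tried, and their median log2 fold change was below 0 in all, from -0.63 without hND6 1 to -0.15 without mCherry 3 and hND6 2 (left out together after the data were seen). The number of genes with non-overlapping groups was 46 of 172 in either direction with all libraries (against 22.8% of all tested genes). With single libraries left out it was between 49 and 109. It was 109 of 171 without hND6 1 (against 35% of all genes tested there), 67 of 171 without mCherry 3 (against 41.2%) and 62 of 172 without mCherry 1 (against 33.8%). It was 49 of 172 both without mCherry 2 (against 31.3%) and without hND6 2 (against 27.9%), and 51 of 173 without hND6 3 (against 29.0%). It was 127 without mCherry 3 and hND6 1 (against 53.7%) and 77 without mCherry 3 and hND6 2 (against 49.7%). With all libraries it was 118 of 449 genes above 300 kb and 15 of 39 above 1000 kb, both against 22.8%. The correlation of log2 fold change with length lay between -0.22 and -0.04 with single libraries left out, weakest without mCherry 3 (-0.0412). It was -0.19 without mCherry 3 and hND6 1, -0.00113 without mCherry 3 and hND6 2 and 0.10 among genes above 1000 kb. The neuronal minus glial difference of medians changed sign. It was 0.0225 with library weights, ran from -0.69 to 0.47 with single libraries left out (0.47 without mCherry 3, 0.10 without hND6 2) and was 0.86 without mCherry 3 and hND6 2. Causes were not tested. Deviations of same-numbered libraries correlated at -0.42, 0.36 and -0.20, with both signs. These values cannot tell whether same-numbered libraries shared a day or a batch. With the replicate block 0 very long genes passed. In this balanced layout the block cannot change a log2 fold change or the non-overlapping count. The median (-0.45), the correlation with length (-0.23), the difference of medians (-0.17) and the count (46) were therefore the same by construction. The depth, lowest in hND6 2 with 20253637 assigned reads, limits genes near the filter most.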

Other observations

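Phosphodiesterases, which hold several long genes, had no gene above 500 kb in the gene table, so none of the 10 listed enters the counts. Of the 183 very long genes, 68 were in none of the functional lists, and 57 of these were tested. The genes just below the rule, 277 tested protein-coding genes of 300 to 500 kb, held 70 with all hND6 values below all mCherry values and 2 in the opposite order, against 10.2% and 12.6% of all tested genes. None passed the adjusted limma threshold, and at an unadjusted p under 0.05 there were 65 lower and 1 higher, against 6.05% and 9.11%.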
